A study of Mus musculus with 19 samples.

Results

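The cytosolic heat shock chaperones were measured by mRNA sequencing of the hippocampal CA1 region in young mice, old mice and old mice given inhibitors of 3 microRNAs. The set was 10 genes taken by name: the stress-inducible chaperones and co-chaperones Hspa1a, Hspa1b, Hsph1, Hsp90aa1, Dnajb1 and Bag3, the constitutive chaperones Hspa8, Hsp90ab1 and Dnaja1, and the transcription factor Hsf1. These are 10 of 48709 annotated genes, and all 10 were among the 19286 genes with enough reads to be tested.

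The 19 libraries came from male C57B/6J mice in 3 groups. Young mice (n = 6) were 3 months old, and old control (n = 6) and old anti-miR-mix mice (n = 7) were 16.5 months old. All 3 groups received lipid nanoparticles by injection into the dorsal hippocampus. The nanoparticles carried control oligonucleotides in the young and old control mice and inhibitors of miR-181a-5p, of miR-148a-3p and of miR-146a-5p in the anti-miR-mix mice, so no library is from an uninjected mouse and no young mouse received the inhibitors. Each library is bulk tissue, in which a smaller number of cells of a type and less RNA per cell cannot be told apart.

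Cytosolic chaperones bind unfolded or partly folded proteins and release them for folding or degradation. HSP70 proteins work in a cycle of ATP hydrolysis that J-domain proteins start and nucleotide exchange factors end, and HSP90 proteins act later, on near-native clients such as kinases and receptors. When unfolded proteins accumulate, the factor HSF1 is freed from chaperones, forms trimers, binds inverted repeats of a short heat shock unit and activates the inducible members, while the constitutive paralogs supply the steady demand that is high in neurons.

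The libraries held 26653511 to 38908947 counted reads. A whole number from 1 to 4 was inferred for each library from the deposited log2 table and is called the processing group below. For every gene that table differed from log2(CPM + 1) of the counts by a multiple of this number. What the number stands for is not in the labels. Number 3 holds no old control library. Old control replicates 5 and 6 resembled each other more than any other pair of one group (variance over counting noise 1.89 per gene, next lowest pair 4.82), which is still above noise, so they were kept as separate libraries. CPM of single genes are read counts scaled to library size with TMM factors, and summed marker levels are scaled to library totals alone. The CA1 markers were present in every group (7 of 8 listed tested, summed level 809.5 to 1133 CPM). Markers of the neighbouring dentate granule cells (135.5 to 240.9 CPM), thalamus (174.4 to 250.7 CPM) and choroid plexus (17.66 to 108.6 CPM) were also present at lower sums. The library of young replicate 4 stood apart for several chaperones, and the differences from young that move by much without it are given both ways. It was singled out by values of these same genes, and leaving out an extreme value narrows the spread. The p-values without it therefore show the dependence on 1 library and are no separate test. Nothing in the labels ties the libraries to separate litters or extraction days, and p-values measure the spread between these libraries only.

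Levels between genes are compared per kilobase of exon. Hsp90ab1, the constitutive cytosolic HSP90, was the most abundant member at 462.4 ± 21.97 CPM per kilobase (SD, n = 19), above 99.6% of the tested genes. Hspa8, the constitutive HSP70, followed at 46.54 ± 3.179 CPM per kilobase. Hsph1, an HSP110 protein that exchanges nucleotide on HSP70, was at 36.9 ± 4.332 CPM per kilobase, and Hsp90aa1, the inducible cytosolic HSP90, at 36.47 ± 1.733. The libraries of Hsph1 and Hsp90aa1 overlapped, and these neighbours did not differ beyond their spread.

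The co-chaperones and the factor lay lower. The J-domain proteins Dnajb1 and Dnaja1 were at 13.81 ± 1.831 and 10.99 ± 0.4967 CPM per kilobase. Hsf1 was at 5.367 ± 0.3993 and Bag3, a nucleotide exchange factor that also links HSP70 to autophagy, at 4.339 ± 0.5048. The inducible HSP70 genes Hspa1b and Hspa1a closed the order at 1.059 ± 0.2853 and 0.853 ± 0.2144 CPM per kilobase, and their ranges overlapped, as did those of Dnajb1 with Dnaja1 and of Hsf1 with Bag3. The inducible HSP70 pair was thus far below its constitutive paralog in every library. It rested on 51 to 175 reads a library for Hspa1a and 53 to 198 for Hspa1b, so counting error is largest there. Several members share stretches of read length with other genes, and whether such reads were counted is not stated. The levels of these members may therefore be too low, and the order holds for counted reads only. The ratio of the highest to the lowest of the 19 libraries was 2.81 for Hspa1a and 2.75 for Hspa1b against 1.19 for Hsp90aa1, Hsp90ab1 and Dnaja1.

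**Figure D1:**
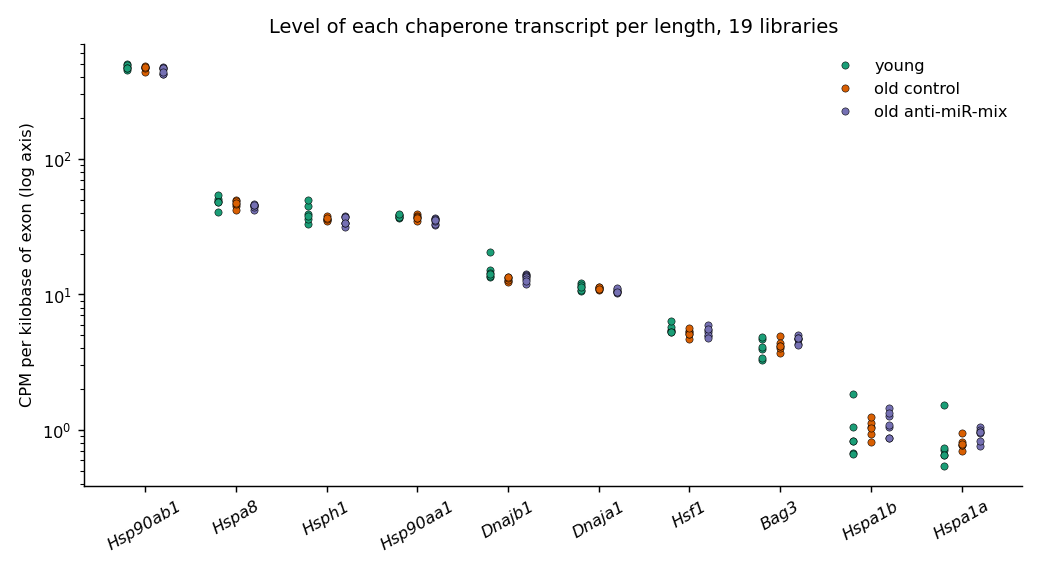
Level of each member in CPM per kilobase of exon on a log axis, one point per library (19), coloured by group. Hsp90ab1 lies near 462.4 and the inducible HSP70 genes near 1 (0.853 and 1.059), and the 3 groups lie on top of each other for most members.

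Across the members, few differences passed the test. Between old control and young libraries 0 of 10 members passed at an adjusted p under 0.05 in edgeR (Benjamini-Hochberg over all genes), where 2.67% of all tested genes did, and DESeq2 and limma also called 0. At an unadjusted p under 0.05 there was 1 member in edgeR, Dnajb1, where 18.1% of all genes passed, and 2 members each in DESeq2 and limma. Between old anti-miR-mix and old control libraries 0 of 10 passed in edgeR, DESeq2 and limma (0.669% of all genes in edgeR), with 1 member in edgeR, Hsp90aa1, at an unadjusted p under 0.05 (10.5% of all genes), 2 in DESeq2 and 0 in limma. Between old anti-miR-mix and young libraries 1 of 10 passed, Hsp90aa1, which was lower (6.2% of all genes), and 7 had an unadjusted p under 0.05, 6 of them lower (19.6% of all genes). The last comparison shares its libraries with the other two.

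The groups did not overlap for 0, 0 and 1 of the 10 members in these comparisons, where 2.54%, 0.498% and 2.42% of all genes showed no overlap. The median log2 fold change over the members was -0.036 for old control against young, -0.011 for anti-miR-mix against old control and -0.09 for anti-miR-mix against young, beside medians of 0.006, 0 and 0.003 over all genes. The 3 constitutive members were lower in all 3 comparisons (medians -0.035, -0.061 and -0.099). None of them passed the adjusted threshold in the main edgeR fit, while DESeq2 called Dnaja1 in the last.

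**Figure D2:**
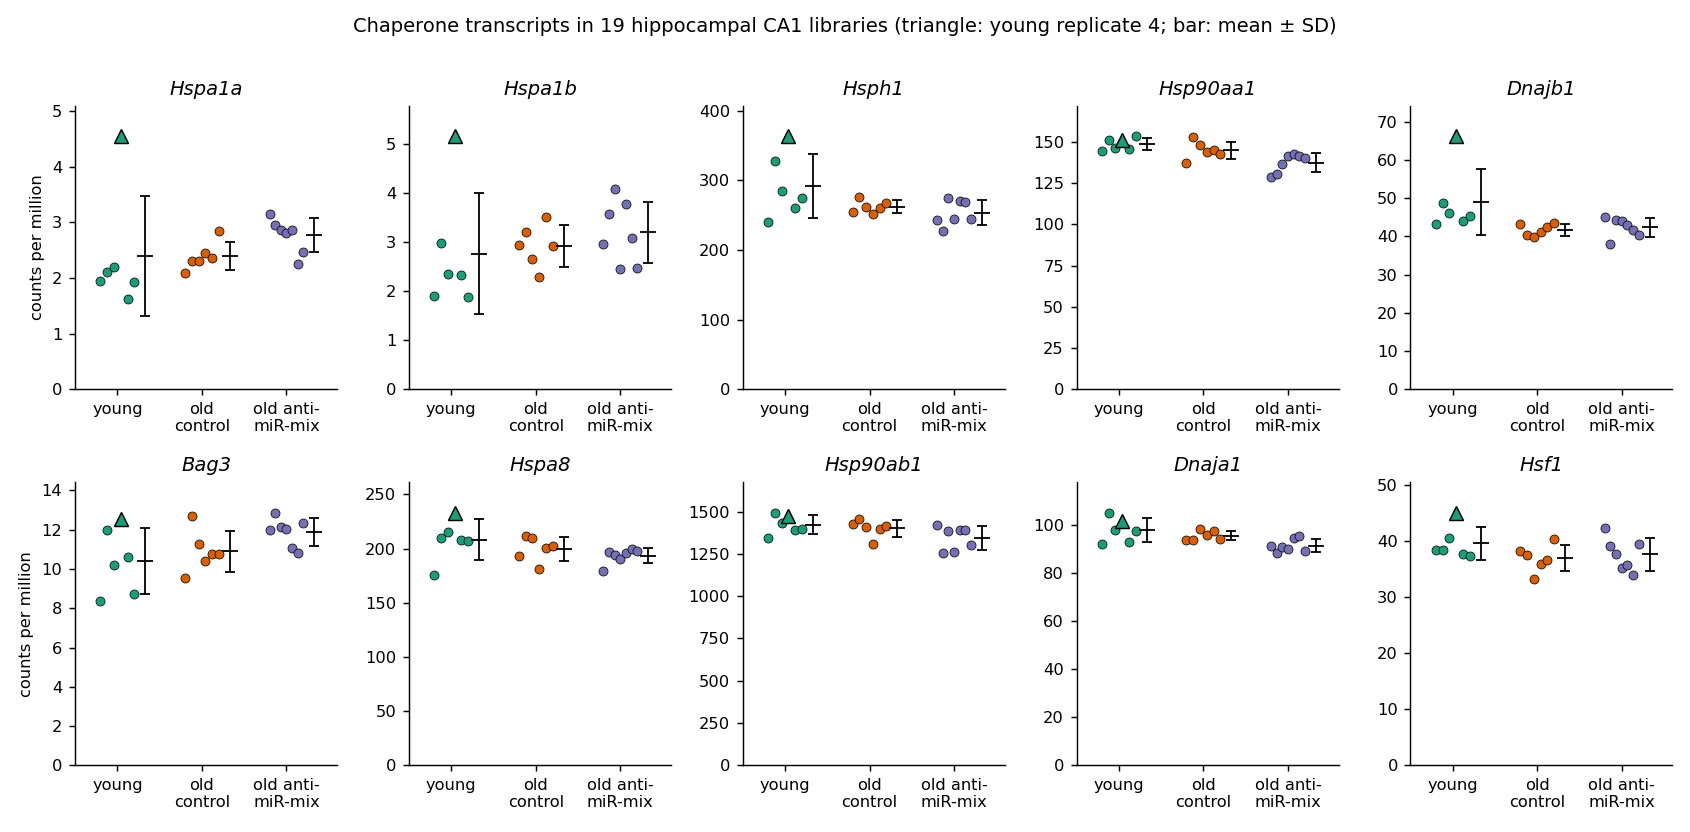
CPM of each of the 10 members in every library, by group. Points are libraries, the triangle is young replicate 4, and bars are the mean ± SD (n = 6, 6 and 7). The triangle lies above all other libraries for Hspa1a (4.549 CPM), Hspa1b (5.147), Hsph1 (362.9), Dnajb1 (66.21), Hspa8 (233.3) and Hsf1 (45.15). It does not for Hsp90aa1, Bag3, Hsp90ab1 or Dnaja1.

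Hspa1a (ENSMUSG00000091971, chr17:34969190-34972156, minus strand of GRCm38) and Hspa1b (ENSMUSG00000090877, chr17:34956436-34959238, minus strand) are neighbouring genes that encode almost the same inducible HSP70. Of the words of 50 bases, the read length, in Hspa1a transcripts 58.8% also occurred in Hspa1b, and 62.3% of those of Hspa1b occurred in Hspa1a. How reads that match both genes were counted is not stated in the sources used here. Their sum does not depend on how such reads were split between them. If such reads were left out, the sum is too low as well. Their promoters are alike as well: over the 250 bases before the start site 247 are the same (98.8%, RefSeq promoter windows, GRCm38.p6). The 150 bases before each start are shown because HSF1 acts there, with the only match to a pair of facing heat shock units (GAANNTTC or TTCNNGAA) in capitals, at chr17:34972157-34972306 and chr17:34959239-34959388, both on the minus strand.
Hspa1a: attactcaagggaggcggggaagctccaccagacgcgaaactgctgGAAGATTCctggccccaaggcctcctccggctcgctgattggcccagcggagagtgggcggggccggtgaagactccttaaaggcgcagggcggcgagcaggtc
Hspa1b: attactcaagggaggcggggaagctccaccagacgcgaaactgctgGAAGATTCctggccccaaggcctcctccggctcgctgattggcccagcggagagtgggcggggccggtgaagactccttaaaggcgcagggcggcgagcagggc

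Promoter windows of 300 bases (250 before and 50 after the start) were held for 6 members (10 windows): Hspa1a, Hspa1b, Hsph1, Dnajb1, Bag3 and Dnaja1. Both orientations of the pair were searched, which covers both strands because each is its own reverse complement. The windows are not separate units, since those of Hsph1 overlap and the promoters of Hspa1a and Hspa1b are nearly the same. Shares over all promoters are per window and not per gene. At least 1 pair lay in 6 of the 10 windows, against 15.1% of all 32851 windows, and 5 of the 6 members had it, 4 of them before the start. It began 104 bases before the start in both HSP70 genes, 124 bases before in Dnaja1 and 54 or 33 bases before the 2 starts of Hsph1. In Bag3 it began 42 bases after the start, and neither window of Dnajb1 held it. A row of 3 alternating units (GAANNTTCNNGAA or TTCNNGAANNTTC), which overlaps 2 pairs and is held by 0.603% of all windows, was found in Hsph1 alone, after the start. These are matches of letters and no measurement of binding.

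In young libraries Hspa1a ranged from 1.617 to 4.549 CPM with a median of 2.027. In old control libraries it ranged from 2.092 to 2.852 CPM (median 2.333) and in old anti-miR-mix libraries from 2.255 to 3.152 CPM (median 2.856). Young replicate 4 was the highest of all 19 libraries, while the other 5 young libraries (1.617 to 2.194 CPM) lay below every anti-miR-mix library and overlapped old control.

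For Hspa1a none of the 3 comparisons passed with all libraries. Old control differed from young by -0.02 on the log2 scale (95% interval -0.40 to 0.37, edgeR adjusted p = 0.975) and anti-miR-mix from old control by 0.21 (-0.16 to 0.58, edgeR adjusted p = 0.735). Anti-miR-mix differed from young by 0.20 (-0.17 to 0.57, edgeR adjusted p = 0.608). Without young replicate 4 the last difference was 0.50 ± 0.106 (SE), a fold of 1.416, with an edgeR adjusted p of 0.00659, where 4.76% of the 19358 genes tested were called in that fit. Old control against young was then 0.29 ± 0.11 (edgeR adjusted p = 0.216). With processing group as a term and that library left out, anti-miR-mix against young was 0.46 ± 0.115 (edgeR adjusted p = 0.03). With processing group as a term and all libraries it was 0.17 ± 0.166 (edgeR adjusted p = 0.637).

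Hspa1b ranged from 1.873 to 5.147 CPM in young (median 2.33), from 2.288 to 3.497 CPM in old control (median 2.929) and from 2.455 to 4.066 CPM in anti-miR-mix libraries (median 3.07). Young replicate 4 was again the highest of all. Of the other 5 young libraries, replicate 2 (2.98 CPM) lay among the anti-miR-mix libraries and the rest lay below all of them, while old control overlapped both groups. Old control differed from young by 0.07 (95% interval -0.36 to 0.49, edgeR adjusted p = 0.907), anti-miR-mix from old control by 0.14 (-0.27 to 0.55, edgeR adjusted p = 0.87) and anti-miR-mix from young by 0.20 (-0.21 to 0.61, edgeR adjusted p = 0.639). Without young replicate 4 the last value was 0.49 ± 0.149 (edgeR adjusted p = 0.0633) and the first 0.36 ± 0.155 (edgeR adjusted p = 0.29).

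Summed over both genes, the difference of anti-miR-mix from young was 0.20 ± 0.173 with all libraries (edgeR adjusted p = 0.579) and 0.50 ± 0.102 without young replicate 4 (edgeR adjusted p = 0.00542). For old control against young the sum gave 0.03 ± 0.18 (edgeR adjusted p = 0.949) and 0.33 ± 0.106 without that library (edgeR adjusted p = 0.143). For anti-miR-mix against old control it gave 0.17 with or without it (edgeR adjusted p = 0.795 and 0.541). The calls of the HSP70 pair thus depended on whether this 1 of 6 young libraries was included. The library was singled out by these same values, so the p-values without it only show that dependence.

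**Figure D3:**
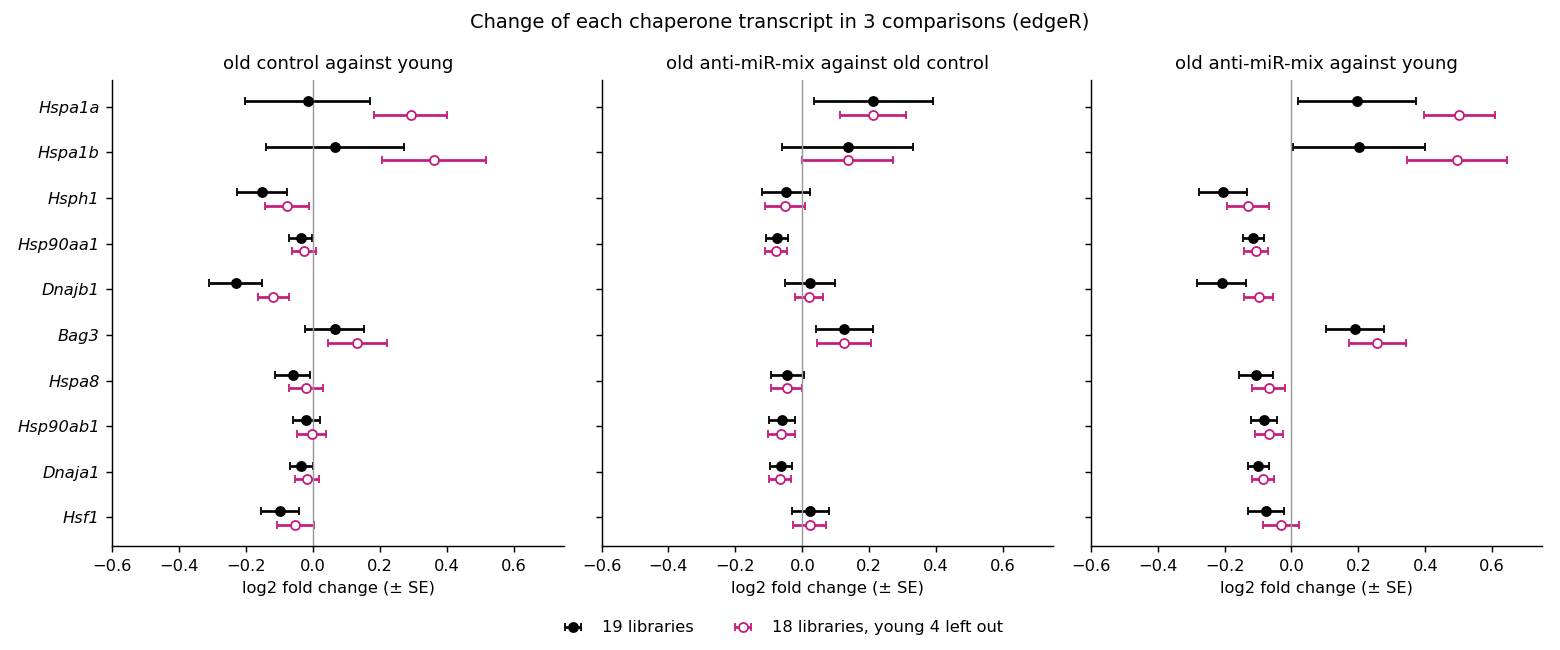
Log2 fold change ± SE of each member in the 3 comparisons, from the fit with all 19 libraries (black, filled) and from the fit without young replicate 4 (magenta, open). The open points of Hspa1a and Hspa1b against young lie to the right of the black ones (0.50 against 0.20 for Hspa1a in anti-miR-mix libraries), and those of Hsp90aa1 lie almost on them.

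Hsph1 (ENSMUSG00000029657, chr5:149614287-149636376, minus strand) ranged from 239.8 to 362.9 CPM in young libraries (median 279.5). It ranged from 251.3 to 276.5 CPM in old control (median 261.2) and from 227.1 to 274.2 CPM in anti-miR-mix libraries (median 244.4). Young libraries spread the most, with young replicates 4 and 2 highest and replicate 1 below every old control library. Old control differed from young by -0.15 (95% interval -0.31 to 0.001, edgeR adjusted p = 0.281), anti-miR-mix from old control by -0.05 (-0.20 to 0.10, edgeR adjusted p = 0.872) and anti-miR-mix from young by -0.20 (-0.35 to -0.05, edgeR adjusted p = 0.103). The last passed when young replicate 1 was left out (-0.25, edgeR adjusted p = 0.0357), and was -0.13 without young replicate 4 (edgeR adjusted p = 0.288). Old control against young was then -0.078 (edgeR adjusted p = 0.64).

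Dnajb1 (ENSMUSG00000005483, chr8:83608193-83612653, plus strand), the inducible J-domain partner of HSP70, ranged from 43.23 to 66.21 CPM in young libraries with a median of 45.71. Old control libraries ranged from 39.79 to 43.45 CPM (median 41.82) and anti-miR-mix libraries from 38 to 45.08 CPM (median 43). All 6 old control libraries lay below the young median, and young replicate 1, at 43.23 CPM, was the only young library below an old control library. Anti-miR-mix overlapped both groups. Old control was lower than young by 0.23 on the log2 scale (-0.23, 95% interval -0.39 to -0.07), which had an unadjusted p of 0.00701 and an adjusted p of 0.111 in edgeR. Without young replicate 4 the difference was -0.12 (edgeR adjusted p = 0.221). Anti-miR-mix differed from old control by 0.02 (-0.13 to 0.18, edgeR adjusted p = 0.949) and from young by -0.21 (-0.36 to -0.05, edgeR adjusted p = 0.107), or by -0.098 without young replicate 4 (edgeR adjusted p = 0.241).

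Bag3 (ENSMUSG00000030847, chr7:128523616-128546981, plus strand) ranged from 8.379 to 12.55 CPM in young (median 10.41), from 9.56 to 12.69 CPM in old control (median 10.78) and from 10.81 to 12.87 CPM in anti-miR-mix libraries (median 12.03). All 7 anti-miR-mix libraries lay above the young and the old control medians, although the ranges overlapped. The difference was 0.06 for old control against young (95% interval -0.12 to 0.25, edgeR adjusted p = 0.762), 0.13 for anti-miR-mix against old control (-0.05 to 0.30, edgeR adjusted p = 0.649) and 0.19 for anti-miR-mix against young (0.01 to 0.37, edgeR adjusted p = 0.218). Leaving out young replicate 4, the last was 0.26 (edgeR adjusted p = 0.0948) and the first 0.13 (edgeR adjusted p = 0.529).

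Hsp90aa1 (ENSMUSG00000021270, chr12:110690605-110702728, minus strand) ranged from 144.2 to 153.4 CPM in young libraries with a median of 148.7. It ranged from 137.3 to 152.7 CPM in old control (median 144.5) and from 128.4 to 142.7 CPM in anti-miR-mix libraries (median 140.1). Every anti-miR-mix library lay below every young library and below the old control median, and old control overlapped both.

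Hsp90aa1 was 148.7 ± 3.684 CPM in young (SD, n = 6) and 137.4 ± 5.738 CPM in anti-miR-mix libraries (SD, n = 7), a difference of -0.11 ± 0.032 (SE) or 0.924-fold (edgeR adjusted p = 0.0386). With processing group as a factor it was -0.12 (edgeR adjusted p = 0.0445). The call was close to the threshold. It was lost when any of 12 single libraries was left out (young replicates 1, 2, 3, 4 and 6, old control replicates 3, 5 and 6, anti-miR-mix replicates 1, 2, 3 and 6), at edgeR adjusted p of up to 0.094 without young replicate 4, while the difference stayed between -0.124 and -0.095 over the 19 fits that leave out 1 library each. Anti-miR-mix differed from old control by -0.08 (95% interval -0.15 to -0.01, edgeR adjusted p = 0.389) and old control from young by -0.04 (-0.11 to 0.03, edgeR adjusted p = 0.614). Of its 50-base words 47.5% occurred in other annotated genes, most of them in Gm12346.

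Beside the lower Hsp90aa1, markers of other cell types moved between the same groups. In anti-miR-mix against young libraries 6 of 7 microglia markers were higher (adjusted p under 0.05, edgeR), with a summed level of 449.5 to 602.3 CPM against 322.4 to 403 CPM. Of 6 astrocyte markers 2 were higher (summed 2630 to 3416 against 2238 to 2625 CPM). Of 7 neuronal markers 1, Stmn2, was lower (summed 6928 to 7341 against 7090 to 7692 CPM). Of 7 thalamus markers 1, Prkcd, was higher (log2 fold change 0.50, edgeR adjusted p = 0.0113). The median log2 fold change of that list was -0.137, and its summed level had medians of 187.4 against 231.3 CPM. Of 7 tested CA1 markers 1, Wfs1, was lower. The median log2 fold change of the CA1 list was 0.091, with summed medians of 988 against 986.6 CPM. No marker of these lists was at 0. Their part in the chaperone differences was not tested.

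Hsp90ab1 (ENSMUSG00000023944, chr17:45567775-45573271, minus strand) ranged from 1345 to 1494 CPM in young (median 1414), from 1310 to 1457 CPM in old control (median 1412) and from 1255 to 1423 CPM in anti-miR-mix libraries (median 1384). The groups overlapped over most of their ranges. Old control differed from young by -0.02 (95% interval -0.10 to 0.06, edgeR adjusted p = 0.837; -0.005 and 0.976 without young replicate 4), anti-miR-mix from old control by -0.06 (-0.14 to 0.02, edgeR adjusted p = 0.609) and anti-miR-mix from young by -0.08 (-0.16 to -0.002, edgeR adjusted p = 0.238).

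Hspa8 (ENSMUSG00000015656, chr9:40800984-40810087, plus strand) ranged from 175.7 to 233.3 CPM in young (median 209), from 181 to 211.9 CPM in old control (median 201.2) and from 179.8 to 200 CPM in anti-miR-mix libraries (median 196.1). All 7 anti-miR-mix libraries lay below the young and old control medians, and young replicate 1 was the lowest of all 19. The differences were -0.06 for old control against young (95% interval -0.17 to 0.05), -0.045 for anti-miR-mix against old control (-0.15 to 0.06) and -0.11 for anti-miR-mix against young (-0.21 to -0.003), with edgeR adjusted p = 0.58, 0.823 and 0.241. Without young replicate 1 the last passed (-0.15, edgeR adjusted p = 0.0471). With young replicate 4 left out it was -0.068 (edgeR adjusted p = 0.516), and old control against young was -0.021 (edgeR adjusted p = 0.899). Of the 50-base words of Hspa8 39.4% occurred elsewhere, most of them in Gm15459.

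Dnaja1 (ENSMUSG00000028410, chr4:40722150-40737149, plus strand), a J-domain partner of Hspa8, ranged from 92.17 to 105.2 CPM in young (median 97.8), from 93.7 to 98.39 CPM in old control (median 95.16) and from 88.58 to 95.69 CPM in anti-miR-mix libraries (median 90.76). All 7 anti-miR-mix libraries lay below the young median, and 6 of 7 below the old control median. The difference of anti-miR-mix from young was -0.10 (95% interval -0.17 to -0.03, edgeR adjusted p = 0.0716). It passed in DESeq2 (adjusted p = 0.0258). In edgeR it passed with a filter of at least 10 counts in 6 libraries (adjusted p = 0.0338) and without young replicate 5 (adjusted p = 0.043). Anti-miR-mix differed from old control by -0.06 (-0.13 to 0.003, edgeR adjusted p = 0.499) and old control from young by -0.035 (-0.10 to 0.03, edgeR adjusted p = 0.626), or by -0.019 without young replicate 4 (edgeR adjusted p = 0.865). Exons of Smu1 on the other strand cover 7% of the Dnaja1 exons, and the use of strand in counting is not stated.

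Hsf1 (ENSMUSG00000022556, chr15:76477422-76501913, plus strand), the factor itself, ranged from 37.34 to 45.15 CPM in young (median 38.51), from 33.34 to 40.43 CPM in old control (median 37.05) and from 33.95 to 42.43 CPM in anti-miR-mix libraries (median 37.7). The highest library was young replicate 4, and the groups overlapped. Its differences were -0.10 (95% interval -0.22 to 0.02), 0.02 (-0.09 to 0.14) and -0.08 (-0.19 to 0.04), with edgeR adjusted p = 0.373, 0.927 and 0.491. The differences from young without young replicate 4 were -0.053 for old control (edgeR adjusted p = 0.723) and -0.031 for anti-miR-mix (edgeR adjusted p = 0.834). HSF1 is regulated mainly after translation, so its transcript level does not measure its activity.

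The inducible member was next set against its constitutive paralog within each library, which needs no scaling between libraries. The percentages are of counted reads. Whether reads that also match other genes were counted is not stated, so the percentages of all reads may differ. The HSP70 pair Hspa1a plus Hspa1b amounted to 1.84 to 4.16% of the Hspa8 counts in young libraries (median 2.15%), 2.36 to 2.93% in old control (median 2.6%) and 2.51 to 3.56% in anti-miR-mix libraries (median 3.32%). Young replicate 4, at 4.16%, was above every other library, and the other 5 young libraries (at most 2.43%) were below every anti-miR-mix library.

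The mean log2 ratio of the HSP70 pair to Hspa8 was higher by 0.18 in old control than in young libraries (exact permutation test, two-sided, p = 0.355, adjusted over 6 tests 0.71). It was higher by 0.21 in anti-miR-mix than in old control libraries (exact permutation p = 0.0548, adjusted 0.175) and by 0.39 in anti-miR-mix than in young libraries (exact permutation p = 0.0583, adjusted 0.175). Without young replicate 4 the differences from young were 0.35 for old control and 0.56 for anti-miR-mix (exact permutation, adjusted p = 0.026 and 0.0152). That library was itself an outlier in this ratio, so these p-values are no separate test. Within processing groups the differences from young were 0.35 for old control and 0.32 for anti-miR-mix (adjusted p = 0.222 and 0.333, permutation within groups). The treatment difference was 0.17 there (adjusted p = 0.333, permutation within groups). Processing group 3 holds no old control library, so its libraries, young replicate 4 among them, carried no weight in the 0.35. Its anti-miR-mix libraries likewise carried none in the 0.17.

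The HSP90 pair behaved differently in these numbers: Hsp90aa1 amounted to 10.1 to 11% of the Hsp90ab1 counts in young, 9.64 to 11% in old control and 9.03 to 11.2% in anti-miR-mix libraries, with medians of 10.3%, 10.4% and 10.3%. The differences of the log2 ratio were -0.017, -0.016 and -0.032 in the 3 comparisons (exact permutation tests, adjusted p = 0.738, 0.766 and 0.738). Whether the HSP70 and HSP90 ratios differ from each other in their change was not tested.

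**Figure D4:**
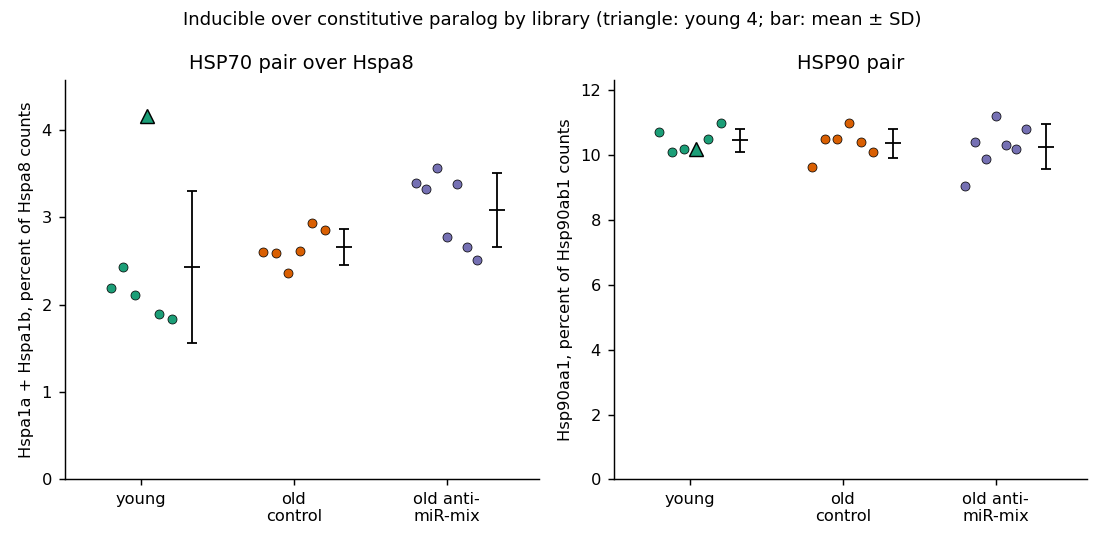
Counts of the inducible paralog as a percentage of the constitutive one in each library, for Hspa1a plus Hspa1b over Hspa8 (left) and Hsp90aa1 over Hsp90ab1 (right). Triangle, young replicate 4 (4.16%), and bars, mean ± SD. On the left the anti-miR-mix libraries (2.51 to 3.56%) lie above the young ones other than the triangle, and on the right the groups share one range.

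Averaged over the 6 inducible members, each centred on its mean over the libraries, the log2 level ranged from -0.25 to 0.50 in young (median -0.11), from -0.1 to 0.05 in old control (median -0.02) and from -0.05 to 0.14 in anti-miR-mix libraries (median 0.03). Over the 3 constitutive members it ranged from -0.09 to 0.14 (median 0.05), from -0.07 to 0.05 (median 0.02) and from -0.092 to 0.008 (median -0.055). The inducible minus the constitutive average had medians of -0.14, -0.02 and 0.095 in the order young, old control and anti-miR-mix. The groups overlapped with or without young replicate 4 (0.36), which exceeded every other library. These averages are a description and carry no test.

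In young replicate 4 Hspa1a was 2.32-fold, Hspa1b 2.25-fold, Dnajb1 1.45-fold and Hsph1 1.31-fold the mean of the other 5 young libraries. Bag3 was 1.26-fold, Hsf1 1.17-fold, Hspa8 1.15-fold and Hsp90aa1 1.02-fold. Of the 10 members, 6 had their highest level of all 19 libraries there. The same library was the highest for 13 of 15 immediate early genes, which neurons switch on with activity, with a sum of 2102 CPM against 625.2 to 1229 CPM in the other 18. It was also the highest for all 7 oligodendrocyte markers (11410 against 6384 to 9950 CPM) and had the lowest sum of leptomeningeal fibroblast markers (53.02 against 90.03 to 238 CPM). Its dentate granule markers summed to 223.3 CPM, above the other young libraries (140.5 to 193.9 CPM) and within the range of all 18 others (135.5 to 240.9 CPM). Of these 8 markers, 3 had their highest level there. The part of these differences in the chaperone levels was not tested.

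Between mice of one group, the other members were compared with the HSP70 pair after the group means were taken out (19 libraries, 8 relations, permutation within groups). Dnajb1 followed it with r = 0.846 and rho = 0.589 (permutation p = 0.0136 and 0.022, adjusted p = 0.0397 and 0.0776). Hsph1 followed with r = 0.76 and rho = 0.672 (permutation p = 0.00495 and 0.00755, adjusted p = 0.0396 and 0.0604). Bag3 had r = 0.619 and rho = 0.382 (permutation p = 0.0196 and 0.14, adjusted p = 0.0397 and 0.16) and Hsf1 r = 0.574 and rho = 0.439 (permutation p = 0.0199 and 0.07, adjusted p = 0.0397 and 0.14). These 4 passed by r and none by rho.

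For the remaining members r was 0.549 for Hspa8, 0.452 for Hsp90ab1, 0.44 for Dnaja1 and 0.0468 for Hsp90aa1 (permutation, adjusted p = 0.191, 0.0649, 0.252 and 0.841), with rho of 0.398, 0.519, 0.405 and -0.0105 (permutation, adjusted p = 0.157, 0.0776, 0.16 and 0.967). When the 2 libraries farthest out, young replicate 4 and anti-miR-mix replicate 3, were left out, r fell to 0.495 for Dnajb1, 0.527 for Hsph1, 0.482 for Bag3 and 0.38 for Hsf1. Without young replicate 4 alone, 0 of 8 relations passed by r or rho after adjustment (permutation, adjusted p of Dnajb1 0.314 and of Hsph1 0.212), and 1 had an unadjusted p under 0.05 (Hsph1, r = 0.532, permutation p = 0.0486). The adjusted threshold was also missed when any of the other 5 young libraries was left out, although r then stayed high (Dnajb1 0.831 to 0.846, permutation, adjusted p = 0.0525 to 0.0785), and 1 of 8 relations passed without anti-miR-mix replicate 6. Without young replicate 4, r went from 0.846 to 0.39 for Dnajb1, from 0.76 to 0.532 for Hsph1 and from 0.619 to 0.45 for Bag3. It went from 0.574 to 0.315 for Hsf1 and from 0.549 to 0.284 for Hspa8. The size of r thus rested on that library for these inducible members and for Hsf1 and Hspa8 as well.

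**Figure D5:**
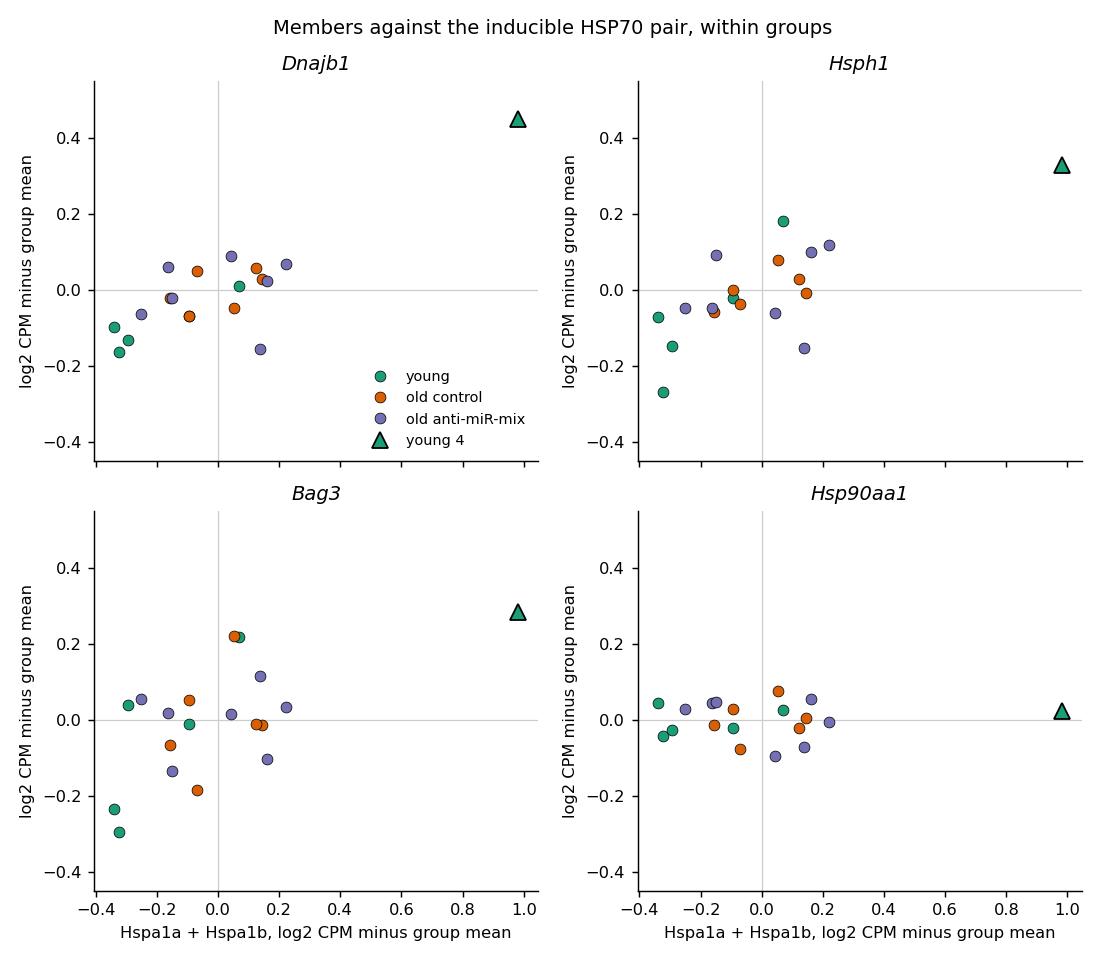
Log2 CPM of Dnajb1, Hsph1, Bag3 and Hsp90aa1 against that of Hspa1a plus Hspa1b, each with its group mean taken out, for 19 libraries coloured by group. Young replicate 4 (triangle) is at the far right of each panel (r = 0.846 for Dnajb1, 0.76 for Hsph1, 0.619 for Bag3 and 0.0468 for Hsp90aa1).

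Outside the lists, the 5 genes whose within-group levels were most like the mean of the 6 inducible members, of 15780 ranked, were Siah2, Tm6sf2, Homer1, Tnfrsf25 and Nab2, with Pearson r of 0.912, 0.9, 0.89, 0.884 and 0.882 over 19 libraries. Homer1 encodes a postsynaptic scaffold with an activity-induced short form, and Nab2 a corepressor of EGR factors. All 5 were higher in young replicate 4 than in any other young library (Homer1 260.6 against 117.7 to 151.2 CPM, Tnfrsf25 33.09 against 8.667 to 16.82 CPM). Without it r was 0.688, 0.783, 0.714, 0.731 and 0.723 in the same order.

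The rest of the chaperone network was described by 8 lists of 83 genes, of which 82 were tested: other HSP70 and HSP110 proteins, small heat shock proteins, other J-domain proteins, HSP90 co-chaperones, HSP70 cofactors, other heat shock factors, TRiC and prefoldin subunits and other known HSF1 targets. Between old control and young libraries 2 of 82 passed in edgeR, 1 higher and 1 lower (2.44%, beside 2.67% of all genes), and the median log2 fold change was -0.005. Between anti-miR-mix and old control libraries 0 of 82 passed, and between anti-miR-mix and young libraries 3 passed, 2 higher and 1 lower (3.66%, beside 6.2% of all genes).

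Among these, Serpinh1, a collagen chaperone of the endoplasmic reticulum, was lower in old control libraries (10.62 ± 0.3747 against 14.58 ± 2.619 CPM, SD, n = 6 and 6, log2 fold change -0.46, edgeR adjusted p = 0.0108). Tomm34, a co-chaperone of mitochondrial import, was higher there (96.43 ± 6.216 against 85.31 ± 4.017 CPM, 0.18, edgeR adjusted p = 0.0494). Hspa4, another HSP110 protein, was lower in anti-miR-mix than in young libraries (263 ± 7.128 against 283.4 ± 8.203 CPM, SD, n = 7 and 6, -0.11, edgeR adjusted p = 0.033). Hmox1, the haem oxygenase, and Mt2, a metallothionein, were higher there (log2 fold change 0.76 and 0.40, edgeR adjusted p = 0.00189 and 0.0087), and both also answer to oxidative or metal stress. None of the 14 TRiC and prefoldin subunits, 12 J-domain proteins, 9 HSP70 cofactors or 7 tested small heat shock proteins passed in any comparison.

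The 3 inhibited microRNAs are shown because a site for them in a transcript is a feature the treatment could touch (mature sequences from RefSeq, GRCm38.p6, seed in capitals).
miR-148a-3p: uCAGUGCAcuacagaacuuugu
miR-181a-5p: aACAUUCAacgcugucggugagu
miR-146a-5p: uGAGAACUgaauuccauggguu

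The match to each seed (bases 2 to 8) was counted in the longest annotated 3′ untranslated stretch of each gene (GENCODE transcripts, GRCm38). A match to at least 1 of the 3 was held by 4 of the 10 members, beside 35% of 15339 tested genes. Hspa1a, Hspa1b and Bag3 each held 1 match to miR-148a-3p (14.9% of all genes), Dnaja1 held 1 to miR-181a-5p (18.1%), and no member held one to miR-146a-5p (12.4%). The members' stretches were 83 to 4203 bases long, and the median over genes was 1165. The matches are printed with their neighbouring bases, the seed match in capitals.
Hspa1a: ttgcatggtggtTGCACTGtaggactt
Hspa1b: ggagcagcactgTGCACTGtaccaggg
Bag3: ttttaagttgcaTGCACTGcgggactt
Dnaja1: tgtatgcagtagTGAATGTgggaagga

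The differences of anti-miR-mix from old control libraries for the holders of a match were 0.21 for Hspa1a, 0.14 for Hspa1b, 0.13 for Bag3 and -0.06 for Dnaja1, and none passed the threshold. Among the 6 members with no match they ranged from -0.08 (Hsp90aa1) to 0.02 (Hsf1). With processing group as a factor the differences of the holders were 0.02 for Hspa1a, -0.061 for Hspa1b, 0.075 for Bag3 and -0.078 for Dnaja1. Of the 6 members with no match, Hsph1, Hsp90aa1, Hspa8 and Dnajb1 were at -0.124, -0.093, -0.084 and -0.055 in that fit. The values of Hsp90ab1 and Hsf1 in it are not given here, so the range over all 6 is not shown. The match is a description of letters, and the relation of a match to the difference was not tested.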

How the data were processed

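CA1 tissue was microdissected from the hippocampus, and polyA RNA libraries were sequenced as 50-base single reads. Per the labels and the methods, the authors checked reads with FastQC (0.11.5), aligned them to mm10 with STAR (2.5.2b) and counted them per gene with featureCounts (Subread 1.5.1). Strand and multi-mapping options are not given in the sources used here. The deposited table holds raw counts for 19 libraries. A deposited table of normalized log2 values (18761 genes) was used only in limma and to infer each library's processing group. Its values equal the log2 scaled counts minus a multiple of that number for each gene (largest residual 3.4e-08). A linear term in the number was thus already taken out of the values given to limma. The limma fit held group terms only and made no allowance for that removal.

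The members and lists were chosen with earlier results of these data known. Genes with at least 5 counts in 50% of libraries (19286) were fitted with edgeR (4.0.16, R 4.3.3), quasi-likelihood, TMM factors and all 3 groups in 1 fit, with a prior count of 2 and Benjamini-Hochberg adjustment over all genes (threshold 0.05). Genes were named by rule: all members, list genes that passed, and the 5 genes most like the inducible mean. Alternatives used DESeq2 (1.42.0), limma (3.58.1), other scaling and filters, processing group terms, a replicate block and each library left out. Ratios were compared by exact permutation and relations by 100000 permutations within groups (SciPy 1.17.1, Python 3.11.15). The fit was tested on simulated data. The replicate numbers were not taken as pairs, since not every same-numbered pair correlated over 0.1.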

Additional observations from a re-analysis of the deposited data

Results flagged for a closer look

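Young replicate 4 lay far from the other young libraries in 3 of the 36 groups of values examined, by the gap to its nearest neighbour over the range of the group (Dixon's 95% critical value 0.625 for 6 samples). Chance alone would single out about 1 group in 20, and the values come from 1 library and are not independent. Hspa1a was at 2.205 log2 CPM there (gap over range 0.708) and Dnajb1 at 6.05 log2 CPM (0.719). The log2 ratio of Hspa1a plus Hspa1b to Hspa8 was -4.589 (0.659).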

How the results depend on the processing

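Beside the 19 fits that leave out 1 library, 14 other settings were run, of which those that combine young replicate 4 left out with the processing group or with the summed HSP70 pair were added after seeing the data. Between anti-miR-mix and young libraries the number of members called was 1, and became 0 with library totals only, with no filter or with only the 2 groups fitted, 2 with DESeq2 or at least 10 counts in 6 libraries, and 0 to 2 with 1 library left out. The call of Hsp90aa1 is the one lost (edgeR adjusted p = 0.059, 0.076 and 0.064 in the first 3), and the cause was not tested.

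Of the differences that turned direction none passed the threshold in any fit. Hspa1a in old control against young was 0.151 with processing group as a factor, 0.31 with young replicate 4 left out as well, 0.038 in limma and 0.034 with the replicate block, and ranged from -0.108 to 0.291 with 1 library left out. Hspa1b ranged from -0.027 to 0.359 and Hsp90ab1 from -0.032 to 0.003 there. In anti-miR-mix against old control, processing group as a factor gave -0.055 for Dnajb1 (-0.004 without young replicate 4) and -0.061 for Hspa1b, and Hsf1 ranged from -0.009 to 0.048 with 1 library left out.

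The ratio of the HSP70 pair to Hspa8 ranged from 0.115 to 0.351 for old control against young and from 0.322 to 0.557 for anti-miR-mix against young with 1 library left out, and that of the HSP90 pair from -0.033 to 0.004 for old control against young and from -0.038 to 0.014 for anti-miR-mix against old control. Of the 8 relations 4 passed, 0 with library totals only, and 0 to 5 with 1 library left out. That of Hsp90aa1 was -0.108 with processing group taken out, -0.092 with library totals only, and -0.112 to 0.128 with 1 library left out.

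With the replicate number as a block (replicate block), Hsp90aa1 in anti-miR-mix against young was -0.119 (edgeR adjusted p = 0.0435) and no call of a member changed. The correlations of same-numbered libraries ranged from -0.33 to 0.36 and 8 of 18 were over 0.1, so the numbers were not taken as pairs. Those of replicates 1 and 6, whose libraries also share a processing group, were all positive (0.1 to 0.317). The other same-numbered pairs within a processing group went both ways. Young with anti-miR-mix was at -0.332 for replicate 2, 0.071 for replicate 3 and -0.031 for replicate 4. Young with old control was at 0.058 for replicate 5.

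Over all genes the calls for old control against young were 514, but 897 with DESeq2, 323 with no filter, 305 with old control replicates 5 and 6 as 1 library and 212 without young replicate 4. For anti-miR-mix against old control they were 129, but 264 with DESeq2, 249 with the replicate block, 48 with only the 2 groups, 33 with old control replicates 5 and 6 as 1 library and 9 with processing group as a factor. Hspa1a and Hspa1b had the lowest counts of the members, and the SE of Hspa1a in anti-miR-mix against young was 0.177 with and 0.106 without young replicate 4.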
